A study of Mus musculus with 10 samples.

Results

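Linker histones of the H1 family were described across 10 RNA-seq libraries of the mouse embryonic stem cell line E14. The 6 genes, found by symbol among 55401 genes of the deposited table, were H1f0 and the replication-dependent H1f1, H1f2, H1f3, H1f4 and H1f5. The genes were chosen by measured TPM, since H1f0 was known to have the largest log2 gain from wild type to mutant, so their values in that comparison are given as a description, with no test. Wild-type, untreated E14 cells gave 4 libraries, in set 1 and set 2 with 2 libraries each. E14 cells carrying ANKRD11 Y347A, a substitution made by CRISPR/Cas9 editing in a nuclear regulator that is linked to cohesin in the series' title, gave 6 libraries, in sets 1, 2 and 3 with 2 libraries each. What a set stands for (a clone, a culture or a passage) is not stated in the labels, nor whether 1 or both alleles were edited. The p-values below therefore reflect spread among sets or libraries that may be technical.

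Linker histones bind where DNA enters and leaves the nucleosome and help to compact chromatin. The replication-dependent members are made mainly in S phase, from genes without introns whose mRNAs end in a conserved stem-loop instead of a poly(A) tail. H1f0 encodes the replication-independent H1 variant of slowly dividing and differentiated cells, is transcribed outside S phase into polyadenylated mRNA, and is classically induced by inhibitors of histone deacetylases. These libraries were made from mRNA captured on beads and labelled as poly(A) RNA. The values of H1f1 to H1f5 therefore need not follow their total mRNA, and the part of tail capture in the results below was not tested.

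The 3' ends are shown because capture by the poly(A) tail depends on them. The annotated H1f1 transcript ends within the stem-loop, so its last 15 bases, GGCTCTTTTCAGAGC, were searched on the sense strand of GENCODE M21 transcripts of GRCm38, the assembly that mm10 denotes. They were found in H1f1, H1f2, H1f3 and H1f4 and are set in capitals between their flanks.
H1f1: acccaacGGCTCTTTTCAGAGC
H1f2: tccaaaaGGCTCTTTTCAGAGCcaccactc
H1f3: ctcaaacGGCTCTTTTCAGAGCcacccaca
H1f4: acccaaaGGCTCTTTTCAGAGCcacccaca
The annotated transcripts of H1f2, H1f3 and H1f4 run on for 841, 4885 and 1154 bases past it. The letters were not in the annotated transcript of H1f0 or in that of H1f5, whose model stops 51 bases before the end of the RefSeq gene. H1f0 instead had the poly(A) signal AATAAA, with 16 bases between it and the transcript's end. H1f2 also had AATAAA 20 bases before the end of its longer transcript. In H1f1 and H1f3 the last AATAAA lay farther off, 414 and 197 bases before the end, and H1f4 and H1f5 had none.

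The promoters are shown because H1f0 is the replication-independent member, and their part in the levels below was not tested. Each run is the 250 bases before the RefSeq start site on GRCm38.p6, and the capitals mark the H1 box AAACACA, the CCAAT box and TATAAA, each searched on both strands, with no overlap between different motifs.
H1f0, chr15:79027962-79028211, plus strand: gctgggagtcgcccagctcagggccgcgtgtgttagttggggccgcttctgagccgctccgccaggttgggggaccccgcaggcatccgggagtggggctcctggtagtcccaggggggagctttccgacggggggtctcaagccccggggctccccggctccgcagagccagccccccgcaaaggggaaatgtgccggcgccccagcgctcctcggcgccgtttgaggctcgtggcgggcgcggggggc
H1f1, chr13:23763418-23763667, plus strand: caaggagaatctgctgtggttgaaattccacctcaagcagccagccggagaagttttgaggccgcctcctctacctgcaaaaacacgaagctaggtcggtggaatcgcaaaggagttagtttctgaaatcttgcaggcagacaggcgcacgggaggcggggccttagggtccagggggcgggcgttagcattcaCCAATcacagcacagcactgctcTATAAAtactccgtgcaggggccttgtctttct
H1f2, chr13:23738557-23738806, plus strand: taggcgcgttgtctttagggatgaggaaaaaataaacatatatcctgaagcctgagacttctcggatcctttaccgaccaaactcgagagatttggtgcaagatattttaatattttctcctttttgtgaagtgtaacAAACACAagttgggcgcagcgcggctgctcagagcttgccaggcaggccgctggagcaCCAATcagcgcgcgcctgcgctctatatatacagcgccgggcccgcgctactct
H1f5, chr13:21780626-21780875, minus strand: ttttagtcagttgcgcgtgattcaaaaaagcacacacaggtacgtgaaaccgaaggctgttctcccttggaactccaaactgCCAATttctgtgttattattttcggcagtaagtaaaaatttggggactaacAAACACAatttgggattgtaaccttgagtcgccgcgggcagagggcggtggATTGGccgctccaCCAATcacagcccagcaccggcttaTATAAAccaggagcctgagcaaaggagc
The H1f0 window ends 238 bases before the GENCODE start of that gene, and those 238 bases were not searched. Counted from the GENCODE start, the distances of 51 to 122 bases given below fall within that unsearched stretch. The lack of motifs in the H1f0 window therefore need not hold for its promoter. The window held none of the 3 motifs and was 74.4% G and C, against 54.8% for H1f1, 50.4% for H1f2 and 48.4% for H1f5. AAACACA was in the windows of H1f2, H1f3, H1f4 and H1f5, starting 112 to 122 bases before the start site, and in 6.25% of all 32851 RefSeq windows of this length. CCAAT was in all 5 replication-dependent windows, where the copy nearest to the start began 51 to 56 bases before it, and in 33.8% of all windows. TATAAA was in the windows of H1f1, H1f3, H1f4 and H1f5 and in 12.4% of all windows. A match is a description of letters and not evidence of a bound factor. Only these exact letters were searched, so a window without a match can still hold a close variant of a box.

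H1f0 (ENSMUSG00000096210.2, mm10 chromosome 15, 79028450 to 79030504, plus strand) had the highest level of the 6 genes in every library. Levels are in TPM, a transcript abundance per length that is scaled to a total of 1000000 in each library. Its level was 31.5 and 31.1 TPM in wild-type set 1 and 20.5 and 20.2 TPM in wild-type set 2. In the mutant it was 118 and 117 TPM in set 1, 105 and 109 TPM in set 2, and 135 and 139 TPM in set 3. Every mutant library was higher than every wild-type library, and the lowest mutant library stood 3.34-fold above the highest wild-type one. Over set means the level was 25.8 ± 7.78 TPM (SD, n = 2 sets) in wild type and 121 ± 15.1 TPM (SD, n = 3 sets) in the mutant, a ratio of 4.67 and a log2 fold change of 2.20 on the log2(TPM + 1) scale.

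H1f1 (ENSMUSG00000049539.3, chromosome 13, 23763666 to 23764406) went the other way. Its level was 3.31 and 4.89 TPM in wild-type set 1 and 3.67 and 3.15 TPM in set 2. In the mutant it was 1.16 and 0.49 TPM in set 1, 1.32 and 1.08 TPM in set 2, and 0.36 and 1.38 TPM in set 3. All mutant libraries were below all wild-type libraries. The set means averaged 3.76 ± 0.488 TPM in wild type and 0.965 ± 0.205 TPM in the mutant, a 3.89-fold lower level with a log2 fold change of -1.29.

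H1f2 (ENSMUSG00000036181.2, chromosome 13, 23738808 to 23740367), one of the main somatic H1 variants, was listed at 1.37 and 1.93 TPM in wild-type set 1 and at 1.34 and 1.54 TPM in set 2. Its mutant values were 3.57 and 2.74 TPM in set 1, 2.41 and 2.28 TPM in set 2, and 1.87 and 2.59 TPM in set 3. The groups overlapped narrowly, since 1 library of mutant set 3 lay under 1 of wild-type set 1. The set means averaged 1.54 ± 0.148 and 2.58 ± 0.504 TPM, a log2 fold change of 0.48.

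H1f5 (ENSMUSG00000058773.2, chromosome 13, 21779883 to 21780625) was at 1.06 and 1.22 TPM in wild-type set 1 and at 0.58 and 0.35 TPM in set 2. In the mutant it was at 0.12 TPM in both libraries of set 1, 0.39 and 0.40 TPM in set 2, and 0.48 and 0.14 TPM in set 3. Wild-type set 1 stood above every mutant library, and wild-type set 2 overlapped them. Its set means averaged 0.803 ± 0.477 and 0.275 ± 0.141 TPM. The log2 fold change was -0.48 over all sets but -0.76 without wild-type set 2 and -0.21 without wild-type set 1.

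The other two members, H1f3 and H1f4, were near the lower end of the table, which is written to 2 decimals. H1f3 (ENSMUSG00000052565.7, chromosome 13, 23553262 to 23560686) lay between 0.05 and 0.08 TPM in wild type and between 0.04 and 0.10 TPM in the mutant. H1f4 (ENSMUSG00000051627.3, chromosome 13, 23620629 to 23622558) was listed at 0 in 1 wild-type library, at up to 0.20 TPM in the others, and at 0.07 to 0.15 TPM in the mutant. Both genes overlapped between genotypes. TPM divides by transcript length, and GENCODE M21 models H1f3 as 7425 bases and H1f4 as 1930 bases where the RefSeq genes span 776 and 782 bases. H1f2 differs as well, with 1560 bases in GENCODE M21 and 725 in RefSeq. The lengths used by the authors were not known, so the order of H1f2, H1f3 and H1f4 against the rest depends on an unknown divisor.

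In all, 1 of the 6 members had its 6 mutant libraries above the 4 wild-type libraries and 1 had them below. Among the 12797 genes whose mean reached 1 TPM, 12.4% lay above in this way, 19.4% below and 31.8% either way. Nothing is read from the members' count, since the same contrast chose them. H1f0, H1f1 and H1f2 reached that mean, and H1f3, H1f4 and H1f5 did not and entered no test. In bulk RNA, fewer cells that express a gene and less RNA in each cell cannot be told apart.

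**Figure D1:**
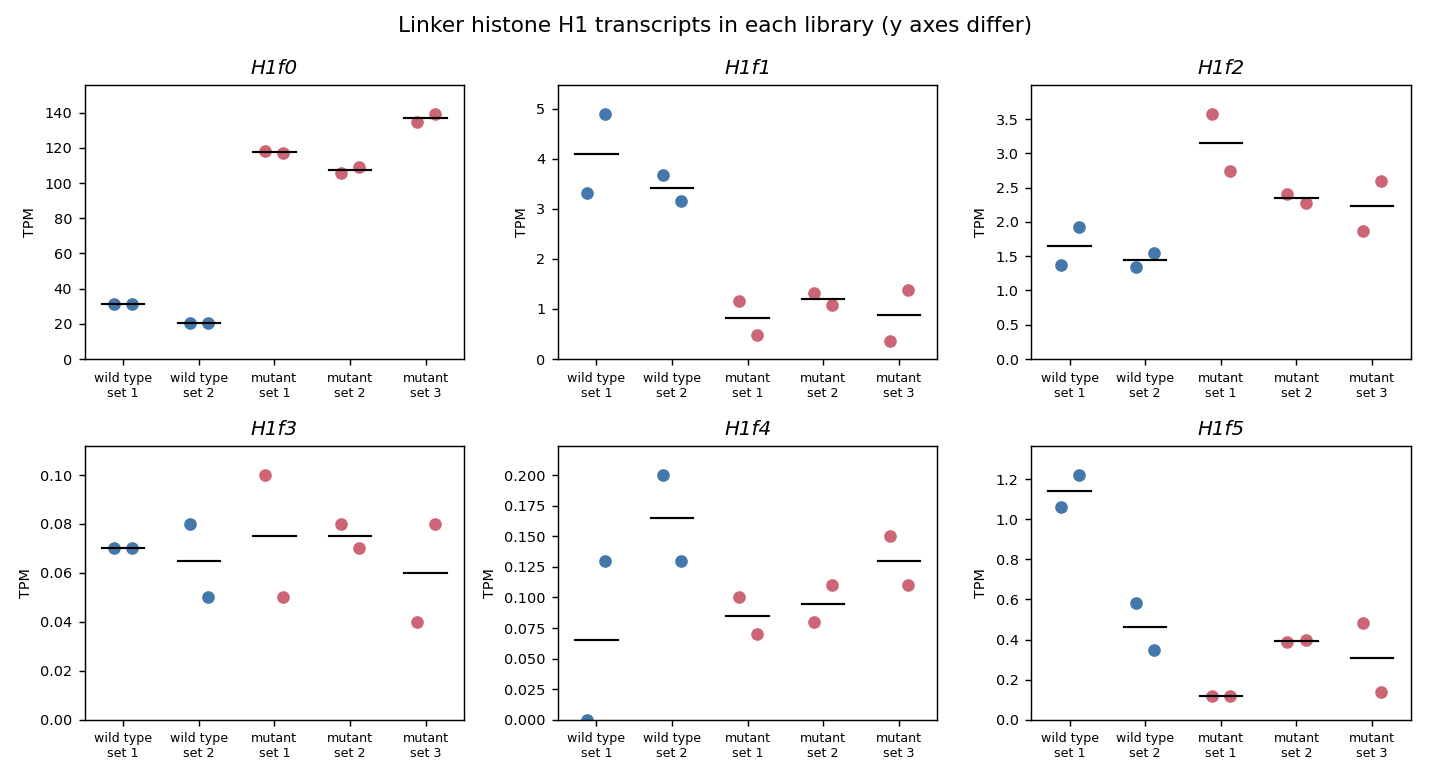
TPM (y axis, a separate linear scale from 0 in each panel) of the 6 linker histone genes by set (x axis), with 1 point per library and a bar at the mean of each set. H1f0 sits at 105 to 139 TPM in the mutant against 20.2 to 31.5 TPM in wild type, H1f1 is lower in every mutant library, and H1f3 and H1f4 overlap throughout.

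The transcripts of the 6 H1 genes shifted towards H1f0, a direction that follows from its choice by this contrast. H1f10, an H1 gene outside the 6, enters none of the sums below. It was at 6.15 to 13.12 TPM in wild type and 13.61 to 27.5 TPM in the mutant, above the summed H1f1 to H1f5 in every library. The summed level of H1f1 to H1f5 was 5.22 to 8.24 TPM in the wild-type libraries and 2.90 to 5.05 TPM in the mutant libraries, without overlap. The genes in this sum did not move together. Over set means H1f1 was at 3.76 TPM in wild type and 0.965 TPM in the mutant, and H1f5 was also lower. H1f2 was higher in the mutant, and H1f3 and H1f4 changed little. H1f0 made up 77.7% to 84.4% of the summed 6 genes in wild type and 95.9% to 97.9% in the mutant. The ratio of H1f0 to that sum ran from 3.49 to 5.43 in wild type and from 23.4 to 46.5 in the mutant. On the log2 scale the ratio averaged 2.03 ± 0.21 (SD, n = 2 sets) and 4.93 ± 0.30 (SD, n = 3 sets), a difference of 2.90. The total of the 6 genes was 32.1 ± 8.82 TPM in wild type and 125 ± 14.8 TPM in the mutant. The sums, shares, ratios and the comparison with H1f10 also depend on the unknown lengths that divided H1f2, H1f3 and H1f4. These shares hold for the captured RNA alone, since replication-dependent mRNAs as a class end without a poly(A) tail, and the tails of those captured were not measured.

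**Figure D2:**
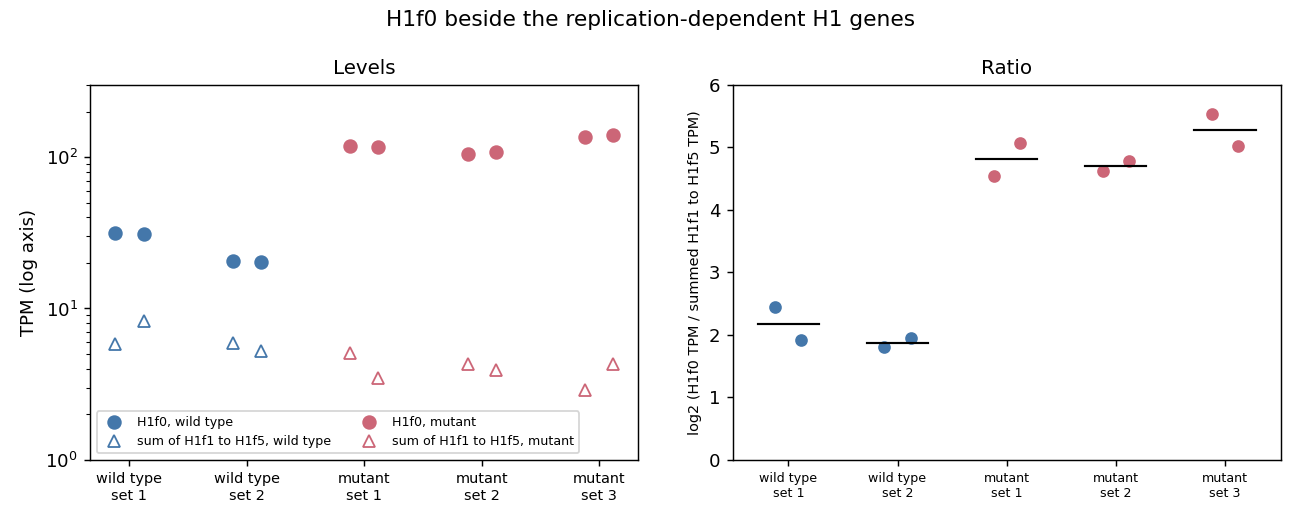
Left, TPM on a log axis of H1f0 (filled circles) and of H1f1 to H1f5 summed (open triangles) in each library, by set. Right, the log2 ratio of H1f0 to that sum, with 1 point per library and a bar at each set mean, which lies between 1.80 and 2.44 in the wild-type libraries and between 4.55 and 5.54 in the mutant libraries.

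Whether sets of one genotype differ was not part of how the genes were chosen, and this was tested. H1f0 differed between sets in both genotypes. Wild-type set 2 was below wild-type set 1 by 0.60 ± 0.04 (SE) on the log2 scale, a 1.54-fold difference in set means (limma over all genes, 2 libraries per set, adjusted p = 0.000711). The mutant sets differed as well (limma F test, adjusted p = 0.00316). Mutant set 3 was above set 1 by 0.22 ± 0.04 and above set 2 by 0.35 ± 0.04, and set 2 fell below set 1 with a log2 difference of -0.13 ± 0.04. The libraries of a set lay close together, and the order of set means from high to low was mutant set 3, set 1, set 2, then wild-type set 1 and set 2. These differences between sets are smaller, as folds, than the 3.34-fold gap between the genotypes' nearest libraries.

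Neither H1f1 nor H1f2 passed these tests. For H1f1 the adjusted p was 0.660 among mutant sets and 0.763 between wild-type sets, where set 2 minus set 1 was -0.19 ± 0.30. For H1f2 they were 0.265 and 0.769, with a wild-type difference of -0.11 ± 0.18. The standard errors of these low genes were several times that of H1f0, so differences of the size seen in H1f0 were not detectable for H1f1 at this precision. Of the 3 members tested, H1f0 alone was called in either comparison, where 19.6% of the 12797 genes differed among mutant sets and 2.75% between wild-type sets. The count between wild-type sets, 352 genes, fell to between 46 and 70 when any 1 of the 4 wild-type libraries was left out, and the call of H1f0 held in each case, where the lone library left in a set is assumed to vary like those of the other sets.

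Among the remaining H1 genes of the table, H1f10, another replication-independent variant, was the only one measured, and H1f6, H1f7 and H1f8, germ-cell variants, were listed at 0 in every library. H1f10 was at 6.15 and 9.24 TPM in wild-type set 1 and 13.1 and 12.2 TPM in set 2. In the mutant it was at 13.6 and 18.5 TPM in set 1, 22.3 and 19.9 TPM in set 2, and 27.5 and 23.9 TPM in set 3. It rose from 10.2 ± 3.51 to 20.9 ± 4.82 TPM (log2 fold change 0.99 ± 0.25 SE, limma on set means, adjusted p = 0.0371). The groups did not overlap, though the lowest mutant and highest wild-type libraries nearly touched. The call was lost without mutant set 2, mutant set 3, either wild-type set or library 2 of mutant set 1, and with no filter (limma adjusted p = 0.123). In wild type the order of sets was opposite to that of H1f0, with set 2 the higher for H1f10 and the lower for H1f0, and the difference between these patterns was not tested.

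The measured core histone genes that share the S-phase programme of H1f1 to H1f5 were mostly lower. Of 60 replication-dependent core histone genes listed, 26 were measured. Of these, 14 fell, 1 rose and 11 did not pass, with a median log2 fold change of -0.90 beside -0.04 over all tested genes (limma on set means, adjusted p under 0.05 after Benjamini-Hochberg adjustment). The filter took the mean of all libraries, so a gene could pass through 1 genotype. H2bc11, H2bc3, H4c1 and H2ac15 averaged under 1 TPM in the mutant alone, and Hist1h2bp in wild type alone. The counts and the median therefore depend in part on the filter. With no filter on low values, which tests all genes of the table except those at 0 in every library, 6 fell and 0 rose. Over all tested genes 17.5% were called, 6.97% higher and 10.5% lower. The split of 892 higher and 1350 lower genes became 1095 and 1096 after median-of-ratios scaling and 1097 and 1033 after quantile normalization, and these scalings moved the median of all genes from -0.04 to 0.00. H2bc11, an H2B gene, fell from 7.38 ± 0.0318 to 0.970 ± 0.619 TPM (-2.12 ± 0.27, adjusted p = 0.00741). H4c2, an H4 gene, fell from 6.11 ± 0.113 to 1.11 ± 1.01 TPM, and H2ac12, an H2A gene, from 12.4 ± 2.92 to 3.59 ± 0.958 TPM. These SDs are over set means and hide the spread between libraries of a set. Single wild-type libraries ran from 4.1 to 10.71 TPM for H2bc11 and from 4.23 to 8.14 TPM for H4c2. Many of these genes are near-identical, and reads could have been split between copies, so single-gene values are uncertain. H1f1 and H1f5 lay on the same side as most of this list, and H1f2 on the other. As a class these mRNAs also end without a poly(A) tail, and whether the captured ones had tails was not measured.

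Of 9 measured core histone variants made outside S phase, 1 rose, 1 fell and 7 did not pass, with a median of 0.05, a share near the 17.5% called over all genes. Neither call held with no filter (adjusted p = 0.0586 for H3f3b and 0.0981 for H2az1, limma). H3f3b, which encodes the replacement histone H3.3, rose from 321 ± 14.4 to 433 ± 31.6 TPM (0.43 ± 0.08, limma adjusted p = 0.0173). H2az1, which encodes the variant H2A.Z, fell from 1521 ± 36.9 to 1111 ± 138 TPM (-0.46 ± 0.10, limma adjusted p = 0.0274).

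Among 22 genes of histone gene transcription and 3' end processing, 3 fell and 0 rose, with a median of -0.12 (limma), a share near the 10.5% lower over all genes, and 0 fell with no filter. Casp8ap2, also called FLASH, a factor of histone mRNA 3' processing, fell from 32.7 ± 6.05 to 17.7 ± 2.28 TPM. Slbp, the protein that binds the histone stem-loop, fell from 132 ± 1.01 to 102 ± 8.64 TPM, and Snrpd3, a core small nuclear ribonucleoprotein, from 98.8 ± 4.26 to 76.2 ± 8.24 TPM, a call lost after either rescaling and without any 1 of 5 libraries. All 3 calls were lost with no filter (limma adjusted p = 0.0612, 0.0797 and 0.113). Of 13 measured chaperones and chromatin proteins that escort H1 or compete with it, 5 fell and 8 did not pass, with a median of -0.26, and 1 fell with no filter. Nasp, a chaperone that binds H1 and H3, fell from 422 ± 33.2 to 260.5 ± 29.8 TPM (-0.70 ± 0.11, limma adjusted p = 0.0109). Npm1, nucleophosmin, fell by 0.60 on the log2 scale. Ptma, the H1-binding acidic protein prothymosin alpha, fell by 0.48 on that scale.

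Histone deacetylases, whose inhibition is known to induce H1f0, mostly did not pass the test. Of 10 measured, Hdac5 rose from 21.03 ± 1.37 to 27.3 ± 1.35 TPM and Hdac1 fell from 214 ± 5.44 to 173 ± 13.6 TPM (limma adjusted p = 0.0382 and 0.0450), and 8 did not pass. The median was 0.07. Both calls were lost with no filter (limma adjusted p = 0.0724 and 0.0996) and without library 1 of mutant set 1 or library 1 of mutant set 3, that of Hdac5 also without library 1 of mutant set 2, and that of Hdac1 without library 2 of wild-type set 1, library 1 of wild-type set 2 or library 2 of mutant set 2 and after either rescaling.

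Of 23 measured genes tied to cell cycle exit, 6 rose, 0 fell and 17 did not pass, with a median of 0.17 (limma; 3 rose with no filter). Btg2, an antiproliferative factor, rose from 12.005 ± 1.74 to 23.1 ± 2.02 TPM (0.89 ± 0.12, limma adjusted p = 0.00838). Its relative Btg1 rose from 19.2 ± 0.944 to 31.3 ± 3.94 TPM, and Ccng2, a cyclin of quiescent cells, from 14.5 ± 3.31 to 22.9 ± 3.29 TPM. The call of Ccng2 was lost without any 1 of 4 libraries and after quantile normalization. Of 27 S-phase genes, 11 fell, 0 rose and 16 did not pass, with a median of -0.34 (limma; 2 fell with no filter). Ccne1 and Ccne2, the E cyclins that start S phase, fell from 82.3 ± 4.28 to 49.9 ± 7.31 TPM and from 13.5 ± 0.608 to 8.43 ± 1.34 TPM, and Gins1, a subunit of the replicative helicase, from 74.2 ± 6.65 to 52.0 ± 3.63 TPM. Slbp belongs to this list as well as to the processing list. The part of the cell cycle in the levels of H1f0 and H1f1 was not tested. With no filter, 22 of the 29 called genes named from the lists lost their call. All of these list counts rest on the 2 wild-type sets, since without wild-type set 2 no gene of any list was called and without wild-type set 1 only 3 core histone genes and 1 pluripotency marker were, all of them lower.

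**Figure D3:**
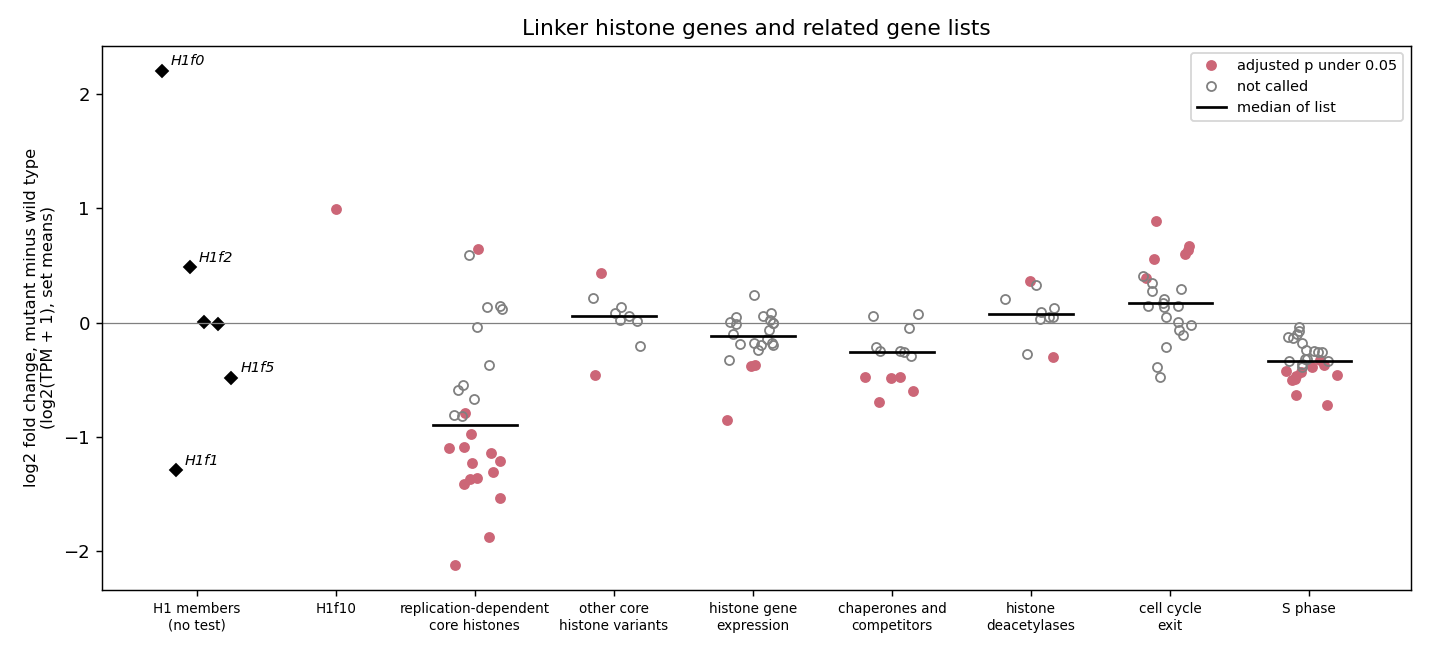
Log2 fold change of mutant over wild type (y axis, log2(TPM + 1) of set means) for the 6 members (black diamonds, not tested) and the measured genes of 8 related groups, with called genes filled, uncalled ones open and a line at the median of each list (H1f10 is a single gene). H1f0 is at 2.20, which its choice fixed as the top, H1f1 is at -1.29, and the median of the core histone genes is -0.90.

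The cells carried the markers of embryonic stem cells in both genotypes. Pou5f1, the pluripotency factor Oct4, was at 1200 to 1271 TPM in wild-type and 1026 to 1185 TPM in mutant libraries, and Sox2 at 270 to 313 and 275 to 298 TPM. Since H1f0 is typical of differentiated cells, markers of other cells were summed beside it. The 10 primitive endoderm markers added up to 0.71 to 1.89 TPM in wild type and 1.59 to 2.99 TPM in the mutant, with Gata6 and Sox17 under 1 TPM throughout. None reached the filter, and Amn, an endocytic coreceptor, was at 0.08 to 0.22 TPM in wild type and 0.73 to 1.45 TPM in the mutant, without overlap. With no filter, 1 marker of this list was called higher. The 10 fibroblast markers summed to 21.5 to 24.3 and 28.9 to 34.6 TPM, mostly Fbln1, 1 of the 2 measured, which rose from 19.6 ± 0.322 to 29.8 ± 1.47 TPM (limma adjusted p = 0.0103), while the other, Thy1, was at 2.47 ± 0.506 and 1.21 ± 0.358 TPM and did not pass (limma adjusted p = 0.0667), Col1a2 was at or below 0.12 TPM and Postn, Dcn and Prrx1 were at 0. The 10 neural markers summed to 166 to 169 and 189 to 207 TPM, mostly Stmn2, with Sox1 rising from 1.38 ± 0.0212 to 3.29 ± 0.422 TPM (limma adjusted p = 0.0169), and Dcx and Neurog2 at 0. Of the 4 measured neural markers 2 rose, and Nes and Tubb3, with log2 fold changes of -0.17 and -0.08, did not pass. The 10 markers of 2-cell-like cells summed to 3.28 to 4.94 and 0.82 to 3.26 TPM, and the one measured, Zscan4f, did not pass (limma adjusted p = 0.221). Among 12 pluripotency markers, 2 rose and 3 fell (limma, 7 did not pass), and with no filter 0 rose and 1 fell. Tdgf1 rose from 421 ± 21.8 to 516 ± 16.0 TPM and Esrrb from 247 ± 17.1 to 299 ± 5.99 TPM (limma adjusted p = 0.0269 and 0.0365). Both are named although outside the rule for named genes and the counts of named genes. Nanog, a core pluripotency factor, fell from 543 ± 43.6 to 339 ± 23.2 TPM, Lin28a from 18.4 ± 2.78 to 10.4 ± 1.87 TPM, and Zfp42 from 361 ± 11.8 to 257 ± 42.9 TPM. The call of Zfp42 was lost after either rescaling, and those of Zfp42 and Lin28a were lost with no filter (limma adjusted p = 0.127 and 0.0864). Per library, 12473 to 12812 genes were at 1 TPM or more. Ankrd11 was at 58.0 to 66.0 TPM in wild type and 53.4 to 69.0 TPM in the mutant (limma adjusted p = 0.686), which does not check the labels, since a substitution need not alter mRNA level.

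Of 29 other genes in the table that start within 200 kb of H1f0 on chromosome 15, 15 were measured. Of these, 3 rose, 1 fell and 11 did not pass, with a median of 0.12 (limma on set means), and none of these calls held with no filter on low values. Gcat (ENSMUSG00000006378.15), a glycine metabolism enzyme and the next measured gene downstream, starts at 79030874 on the same strand and was at 67.7 ± 2.58 and 73.9 ± 3.04 TPM (adjusted p = 0.276). Micall1, an adaptor of endosomal recycling, rose from 0.955 ± 0.226 to 2.65 ± 0.198 TPM (0.90 ± 0.16, limma adjusted p = 0.0162). Cdc42ep1 (0.55 ± 0.15) and Pdxp (0.41 ± 0.11) rose, calls lost without library 2 of wild-type set 2 or library 1 of mutant set 1, and for Pdxp also without library 1 of mutant set 3 and for Cdc42ep1 without 5 others, and Eif3l, a translation initiation subunit, fell by 0.30 on the log2 scale (named although outside the rule for named genes). An antisense gene, Gm49544, overlaps the start of H1f0 and did not reach a mean of 1 TPM, so it entered no test.

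**Figure D4:**
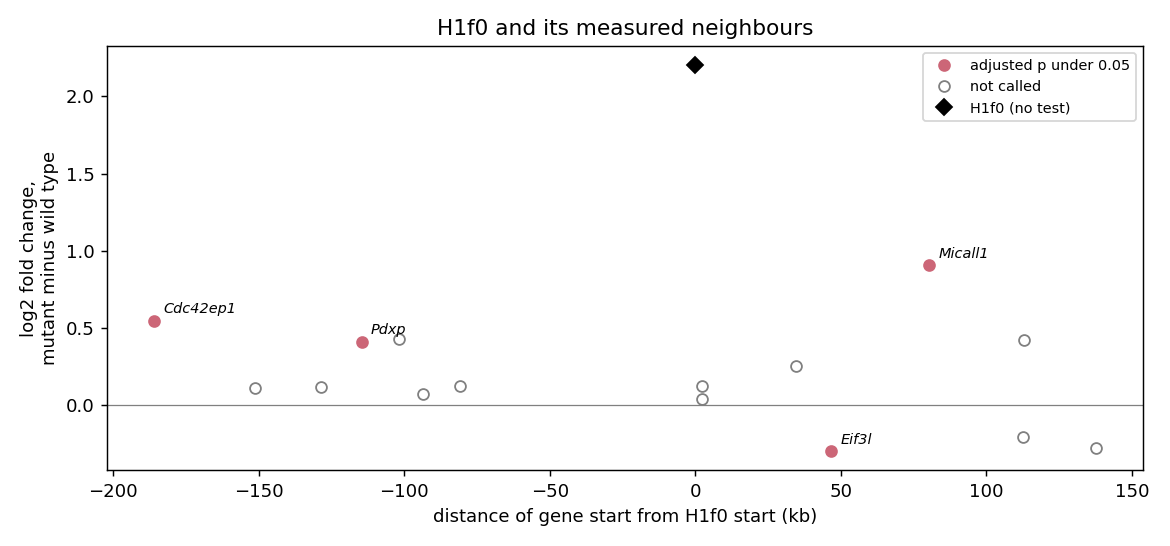
Log2 fold change of mutant over wild type (y axis) against the distance in kb of each measured gene's start from that of H1f0 (x axis), with called genes filled and H1f0 as a black diamond. H1f0 lies at 2.20, and its 15 measured neighbours lie between -0.30 and 0.90.

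Genes with a profile like that of H1f0 were ranked by the mean absolute difference, over the 10 libraries, between log2(TPM + 1) profiles each centred on its own mean. This distance keeps the size of the change between genotypes, by which H1f0 was chosen. The order therefore largely restates that contrast and is given as a description. The closest of 12796 genes was Catip, with a difference of 0.22, followed by Ltbp3, which binds latent TGF-beta, at 0.24. Adssl1, an adenylosuccinate synthase, and Ahnak2 were each at 0.25, and Slc11a1, a metal ion transporter, was at 0.26. Catip and Slc11a1 are neighbours on the same chromosome, so their likeness to H1f0 need not be independent. Catip was at 16.8 and 17.0 TPM in wild-type set 1, 8.10 and 9.31 TPM in wild-type set 2, and 40.1 to 47.9 TPM in the mutant, so that like H1f0 it was lower in wild-type set 2 than in set 1. In this order H1f2 came 966th, at 0.83, and H1f1 12648th, at 1.68. H1f2 had the highest mean of the replication-dependent members over the 10 libraries, 2.16 TPM against 2.08 TPM for H1f1. In wild type alone H1f1 was the higher. The genes closest to H1f2 were Cnga3, Tbc1d9, Zfp358, Gm3558 and Stambp, at 0.08 to 0.09. H1f0 and H1f1 came 12516th and 12541st in that order.

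**Figure D5:**
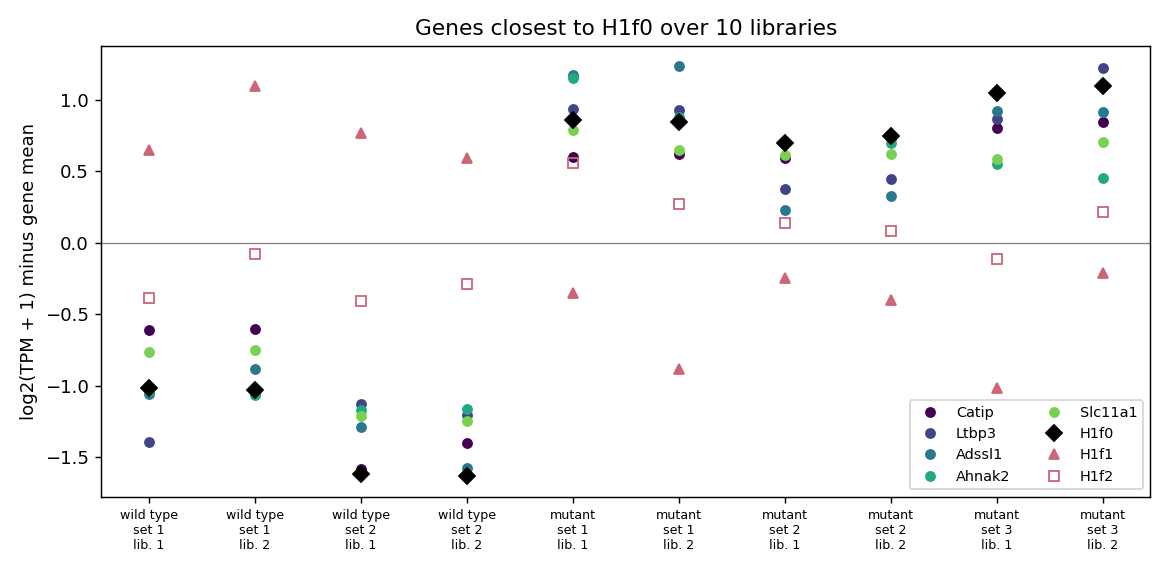
Centred log2(TPM + 1) in each of the 10 libraries (x axis) for H1f0 (black diamonds), the 5 genes closest to it (circles), H1f1 (triangles) and H1f2 (squares). H1f0 and its closest genes lie below 0 in wild-type and above 0 in mutant libraries, with H1f0 lowest in wild-type set 2 and highest in mutant set 3, while H1f1 runs the other way.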

How the data were processed

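RNA was sequenced in 10 libraries, and the deposited table holds TPM values that the authors computed per gene and library, to 2 decimals. The submitters' processing notes name Trim Galore, STAR, RSEM, DESeq2 and the mm10 build. Versions, settings, strand mode and annotation were not given in these sources. Depth is therefore unknown, and TPM are relative to each library's total. All columns were matched to samples by name (0 left out), and 55141 of 55401 identifiers matched GENCODE M21. All tests used log2(TPM + 1), whose fold changes understate low genes. The 12797 genes whose mean reached 1 TPM entered limma 3.58.1 in R 4.3.3 (eBayes, trend set, two-sided, Benjamini-Hochberg over all tested genes, threshold 0.05). Mutant and wild type were compared over set means (2 against 3, 3 residual degrees of freedom), and sets of one genotype over single libraries (5 residual degrees of freedom). The fits were tested on simulated data.

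The members and lists were chosen with earlier results of these data known. Members are given without a test between genotypes. Named genes were, per list, up to 3 called genes with the largest change, or the 2 with the smallest p, and the 5 genes closest in profile to H1f0 and to H1f2. Alternatives were another pseudocount, other filters, median-of-ratios and quantile scaling, other units and blocks, and leaving out each set or library. Promoter sequences came from RefSeq on GRCm38.p6, where all 6 members matched. Figures used matplotlib 3.10.9.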

Additional observations from a re-analysis of the deposited data

Results flagged for a closer look

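In 92 groups examined (the 4 wild-type or the 6 mutant libraries of each member, named list gene and gene close in profile), 2 held a library that stood apart from the rest by Dixon's test, where chance flags about 1 in 20. Neither was a linker histone gene. Fbln1, a fibroblast marker, was at 18.98 TPM in library 2 of wild-type set 1 and at 19.8 to 19.9 TPM in the other wild-type libraries. Tbc1d9, a gene close in profile to H1f2, was at 3.09 TPM in the same library and at 2.14 to 2.23 TPM in the others.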

How the results depend on the processing

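The H1f0 log2 fold change of 2.20 ran from 1.90 without wild-type set 2 to 2.50 without wild-type set 1, and the difference in log2 ratio of 2.90 from 2.73 to 3.05 with single sets or libraries left out. The differences of H1f0 between sets kept their calls in every alternative run, with adjusted p up to 0.0229 among mutant sets. H1f1 and H1f2 did not reach a call between sets in any alternative, and their difference between wild-type sets ran from -0.42 to 0.031 and from -0.27 to 0.041 with single libraries left out, changing sign without library 2 of wild-type set 1. The count of genes called between genotypes, 2242, was 809 with no filter, 5269 over single libraries, 3398 when sets were a random effect, and 97 to 2521 with single sets or libraries left out. The count among mutant sets, 2507, was 1614 with no filter and 1126 to 2809 with single libraries left out, and that between wild-type sets, 352, was 46 to 619. Calls were split into 892 higher and 1350 lower as deposited and 1095 higher and 1096 lower after median-of-ratios scaling. The labels do not say that equal numbers mark a shared origin. The correlation across genes of the difference of set 1 and set 2 between genotypes was -0.14, and that of replicate differences between sets lay between -0.08 and 0.12. With the set number as a replicate block 561 genes were called between genotypes, and with the replicate number as a replicate block 4998, and 233 between wild-type sets. Unknown depth limits H1f3, H1f4 and H1f5 most. The causes of these changes were not tested.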
